A study of Homo sapiens with 4 samples.

Results

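PC3 prostate cancer cells exposed to 46 µM morusin for 6 h were compared with untreated PC3 cells, gene by gene. Of 60617 genes in the table, the 12907 that reached 1 FPKM (fragments per kilobase of transcript, scaled to the fragments mapped in the library) in either library were used. For each of them the change was taken as log2 of treated FPKM + 1 over untreated FPKM + 1, and a gene was counted as higher or lower at a size of 2-fold. By that size 160 genes were higher in the treated library (1.24% of those measured) and 341 were lower (2.64%), and the median change of all measured genes was -0.05. With FPKM rescaled to equal sums over nuclear protein-coding genes, the split was 137 higher and 510 lower. PC3 is an established prostate cancer line that was derived from a metastasis in bone and grows without androgen. Morusin is a prenylated flavone of mulberry root bark. The cells were kept in F12 medium with heat-inactivated fetal bovine serum, penicillin and streptomycin, and the other line of the study, 22Rv1, was kept in RPMI and given 75 µM. Each of the 4 groups, untreated and treated for each line, held 1 library. No difference below has a replicate check, no test was possible, and every value describes these libraries. A gene with fewer transcripts per cell and a library with fewer cells that make it cannot be told apart in bulk RNA.

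Cells meet damaged or unfolded protein with a few well-known programmes. The transcription factor HSF1 turns on chaperones of the HSP70, J-domain and small heat shock families, and the ER has its own sensors that raise chaperones such as BiP. Kinases that phosphorylate the initiation factor eIF2 slow translation and favour ATF4, ATF3 and CHOP, which is the integrated stress response, while the p38 and JNK kinases act through AP-1 and are shut off by dual-specificity phosphatases. Genes that are switched on within minutes to hours are often short, have few introns, carry a TATA box and make short-lived mRNAs.

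The libraries matched the label of the line. All 6 markers set for PC3 were well above 1 FPKM, among them KRT81, a hair keratin (848 FPKM untreated and 1230 treated), ANXA2, annexin A2 (870 and 1030.1) and the urokinase gene PLAU (330.5 and 434). KLK3, the prostate-specific antigen gene, was listed at 0 in both. GHDC, STAT5B, STAT5A and STAT3, neighbours on chromosome 17 (42188799 to 42388568), were listed at 0 in both PC3 libraries, whereas STAT3 was at 9.24 and 6.93 FPKM in untreated and treated 22Rv1. PC3 is known to have lost this region. The histone acetylase gene KAT2A, close by on that chromosome, was also listed at 0. Markers of other cell types were scarce. Of 6 leukocyte markers only CD68 passed 1 FPKM (26.0 and 39.9), of 6 neuroendocrine markers only ENO2 (18.9 and 21.3), of 6 fibroblast markers only COL1A1 (3.01 and 1.29) and of 6 endothelial markers only PECAM1 (1.07 and 1.02). The defining markers PTPRC, VWF and CHGA stood at or near 0. FPKM summed to 335458 in the untreated and 358823 in the treated library, and the depths inferred from the steps between low values were 40.5 and 28.4 M read pairs. At those rough depths 1 FPKM of a 2 kb transcript corresponds to 80.9 and 56.9 pairs, and the counting error of the log2 ratio had a median of 0.05 over the 80 most changed named genes, with 0.28 as the highest.

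The TATA box, which the choice of genes did not use, was more frequent in promoters of higher genes. It was read as TATAAA on the gene's own strand with its first base 40 to 20 bases before the start, and stood in 23 of the 79 higher genes with a promoter in the RefSeq table (29.1%). It stood in 156 of 9738 measured genes (1.602%) and in 5 of 234 lower genes (2.14%). Read the other way, 14.7% of the 156 genes with the box were higher, against 0.584% of the 9582 without it, while the shares that were lower were 3.21% and 2.39%. With histone genes left out, 18 of 72 higher genes and 1.41% of measured genes held the box, and among the 23 matched genes of 4-fold or more 39.1% did. Of these genes, 113 with the box and 8574 without were also measured in 22Rv1, and 14.2% and 1.92% were 2-fold higher there, at its own dose. The 3.48% higher over all 13361 genes measured in 22Rv1 is of a wider set, which includes genes without a matched promoter. Only 79 of the 160 higher genes and 234 of the 341 lower genes could be matched, so these shares cover part of each class.

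The promoters of 9 genes on which the results turn are shown over the 250 bases before and the 50 from the start, from RefSeq on GRCh38.p14, to let the letters be read beside the values. Each is in the direction of its gene. Capitals mark the TATA box in the window above and, for the genes named, the following strings on either strand. In HSPA6 (chr1:161524290-161524589, plus strand) and HSPA1A (chr6:31815293-31815592, plus strand) they mark pairs of heat shock units, GAANNTTC or TTCNNGAA, in HSPA5 (chr9:125241294-125241593, minus strand) the ER stress element, CCAAT and CCACG with any 9 bases between, and in PPP1R15A (chr19:48872171-48872470, plus strand) and DUSP1 (chr5:172771146-172771445, minus strand) the CRE, TGACGTCA. In CXCL3 (chr4:74038640-74038939, minus strand) they mark an NF-kB string, GGGA and TNCC with any 2 bases between, and in MT1X (chr16:56682220-56682519, plus strand) the metal response strings TGCGCNC and TGCACNC. For CCN2 (chr6:131951323-131951622, minus strand) and MAT2A (chr2:85538918-85539217, plus strand) they mark the TATA box alone, and MAT2A is shown as a gene with a TATA box that was lower.
HSPA6: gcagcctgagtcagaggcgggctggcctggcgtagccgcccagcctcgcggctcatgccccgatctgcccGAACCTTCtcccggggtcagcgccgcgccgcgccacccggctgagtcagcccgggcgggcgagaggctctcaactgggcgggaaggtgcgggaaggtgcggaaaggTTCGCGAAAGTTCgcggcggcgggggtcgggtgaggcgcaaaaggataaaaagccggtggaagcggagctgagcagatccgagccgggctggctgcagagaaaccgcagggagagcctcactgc
HSPA1A: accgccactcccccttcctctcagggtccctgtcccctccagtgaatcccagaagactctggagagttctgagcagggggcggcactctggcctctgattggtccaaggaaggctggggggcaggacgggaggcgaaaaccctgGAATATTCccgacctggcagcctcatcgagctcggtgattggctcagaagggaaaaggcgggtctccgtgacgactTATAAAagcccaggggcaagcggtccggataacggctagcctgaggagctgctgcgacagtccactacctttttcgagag
HSPA5: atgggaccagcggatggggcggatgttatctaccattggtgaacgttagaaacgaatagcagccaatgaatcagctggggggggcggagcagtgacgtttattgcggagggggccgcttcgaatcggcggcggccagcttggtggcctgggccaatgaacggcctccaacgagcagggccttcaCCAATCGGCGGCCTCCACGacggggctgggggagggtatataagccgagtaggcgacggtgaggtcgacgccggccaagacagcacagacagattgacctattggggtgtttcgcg
PPP1R15A: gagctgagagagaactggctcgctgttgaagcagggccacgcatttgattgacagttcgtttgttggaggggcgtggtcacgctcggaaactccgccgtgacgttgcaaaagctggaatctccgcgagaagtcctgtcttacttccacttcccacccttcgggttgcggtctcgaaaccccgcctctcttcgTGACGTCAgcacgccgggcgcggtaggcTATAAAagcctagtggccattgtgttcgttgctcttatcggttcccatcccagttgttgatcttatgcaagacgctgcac
DUSP1: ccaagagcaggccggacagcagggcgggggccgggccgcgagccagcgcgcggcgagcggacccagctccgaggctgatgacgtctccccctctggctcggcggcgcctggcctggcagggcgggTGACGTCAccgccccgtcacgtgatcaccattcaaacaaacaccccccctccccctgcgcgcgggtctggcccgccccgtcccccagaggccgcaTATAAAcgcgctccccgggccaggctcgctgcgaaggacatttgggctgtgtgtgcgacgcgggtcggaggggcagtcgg
CXCL3: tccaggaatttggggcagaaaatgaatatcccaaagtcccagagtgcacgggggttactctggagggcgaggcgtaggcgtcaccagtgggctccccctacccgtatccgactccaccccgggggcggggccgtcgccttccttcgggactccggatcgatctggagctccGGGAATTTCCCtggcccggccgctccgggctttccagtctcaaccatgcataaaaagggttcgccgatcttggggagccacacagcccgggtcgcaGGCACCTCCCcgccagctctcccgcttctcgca
MT1X: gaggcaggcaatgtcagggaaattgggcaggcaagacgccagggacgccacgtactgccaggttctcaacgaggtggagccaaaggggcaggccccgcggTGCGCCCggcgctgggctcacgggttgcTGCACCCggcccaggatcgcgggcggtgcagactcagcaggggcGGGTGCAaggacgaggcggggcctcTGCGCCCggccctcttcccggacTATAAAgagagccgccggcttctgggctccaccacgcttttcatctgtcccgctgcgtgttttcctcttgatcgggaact
CCN2: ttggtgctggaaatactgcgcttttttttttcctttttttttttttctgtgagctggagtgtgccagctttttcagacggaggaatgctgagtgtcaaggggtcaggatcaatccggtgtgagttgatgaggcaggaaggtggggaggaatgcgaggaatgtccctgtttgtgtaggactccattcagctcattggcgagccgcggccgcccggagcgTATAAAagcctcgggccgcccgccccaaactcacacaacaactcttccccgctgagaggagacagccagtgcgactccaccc
MAT2A: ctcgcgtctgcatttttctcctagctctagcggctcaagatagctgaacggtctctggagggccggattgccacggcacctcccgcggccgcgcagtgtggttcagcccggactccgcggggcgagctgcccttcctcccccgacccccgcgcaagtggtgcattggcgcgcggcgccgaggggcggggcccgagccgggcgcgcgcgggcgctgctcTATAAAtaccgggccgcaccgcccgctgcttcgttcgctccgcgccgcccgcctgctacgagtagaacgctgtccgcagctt

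Some other strings differed in share between the classes and some were close, with histone genes kept in. The CCAAT box was in 54.4% of higher, 37.3% of measured and 37.6% of lower promoters, and in 35.7% of all promoters of the table. The serum response CArG core, a rare string, was in 2 of 79 higher, 4 of 9738 measured and 0 of 234 lower promoters, and in 10 of all 27305. The CRE was in 7.59% of higher, 3.41% of measured and 2.14% of lower promoters, and in 1.98% of all promoters. The higher share was 6 of 79 genes, among them the histone genes H2BC14 and H2AC14. Heat shock unit pairs were in 12.7%, 9.83% and 7.69% of the classes in the same order and in 13.7% of all promoters, and the NF-kB string was in 8.86%, 5.28%, 4.70% and 4.85%. A metal response string of either form was in 43.0% of higher, 39.5% of measured and 44.0% of lower promoters (29.3% of all), so it was common in every class. The AP-1 string TGANTCA was in 7.59%, 4.28%, 4.70% and 7.76%. The full ER stress element was in 1 higher gene, HSPA5, and in 0.133% of measured promoters. A match describes letters in a window and is not a bound site.

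The highest change of all was that of a chaperone gene, and few other chaperones passed 2-fold. HSPA6, a strictly inducible HSP70 (chromosome 1, 161524540 to 161526910, a single exon), was at 1.28 FPKM untreated and 132 treated, a change of 5.86, or 58.2-fold on the FPKM + 1 scale. HSPA1A and HSPA1B, the near-identical inducible copies on chromosome 6 whose reads cannot be divided with certainty, were at 136 and 127 FPKM untreated and at 1439 and 1400 treated. HSPA7, a pseudogene next of kin to HSPA6 and subject to the same doubt, was at 0.34 and 17.7 FPKM. The constitutive members of the family were much closer to their untreated level. HSPA8, the main cytosolic HSP70 of unstressed cells, was at 594 and 796 FPKM, the mitochondrial HSPA9 at 148 and 171, and HSPH1, an HSP110 exchange factor, at 71.7 and 102. Of 12 measured HSP70 and HSP110 genes 3 were 2-fold higher and 0 lower, with a median of 0.18. Among 27 J-domain, HSP90, HSP60, small heat shock and BAG genes, 3 were higher, 0 were lower and 21 were above 0 (median 0.27). These were DNAJB1, the J-domain partner of inducible HSP70 (136 and 982 FPKM), HSPB1, the small heat shock protein HSP27 (89.3 and 204), and CRYAB, a small heat shock protein that was nearly absent untreated (0.00919 and 1.18). HSP90AA1 and HSP90AB1 were at 1065 and 758 FPKM untreated and 1492 and 1018 treated, changes of 0.49 and 0.43, and BAG3, an HSP70 exchange factor often induced with it, was at 106 and 133 FPKM.

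UBB, which encodes polyubiquitin, was at 351 FPKM untreated and 671 treated, a change of 0.93. HSF1 itself, the heat shock factor, was at 50.9 and 78.1 FPKM, and of 18 measured HSF, chaperonin and related genes 1 was higher, 0 were lower and 16 were above 0 (median 0.19).

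Within the integrated stress response, some genes were higher and others usually raised by ATF4 were not. DDIT3, which encodes CHOP, was at 8.33 FPKM untreated and 82.1 treated (change 3.15). ATF3, an ATF family repressor, was at 5.40 and 29.5, and PPP1R15A, the subunit that directs a phosphatase to eIF2, at 29.2 and 163. GDF15, a secreted stress cytokine, was at 33.1 and 281 FPKM, and the growth arrest genes GADD45A and GADD45B were at 23.1 and 13.6 untreated and 90.2 and 71.3 treated. These 6 were the members past 2-fold among 26 measured, and 0 were lower (median 0.18). ATF4 mRNA was at 71.1 and 92.1 FPKM, a change of 0.37. TRIB3, a pseudokinase, was at 18.7 and 15.3, CHAC1, a glutathione-degrading enzyme, at 16.1 and 13.1, and asparagine synthetase ASNS at 12.81 and 14.02. Of 32 amino acid synthesis, transport and tRNA charging genes 1 was higher, 1 was lower and 19 were below 0 (median -0.04, or 0.01 with all genes centred on 0). The higher one was SLC3A2, the heavy chain shared by several amino acid transporters (44.6 and 120 FPKM). Light chains and other carriers were below their untreated level, SLC7A5 at 62.1 and 34.0, SLC7A11 at 7.34 and 3.74, SLC38A2 at 258 and 159, and SLC38A1 at 93.7 and 45.1, which was the lower member.

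In the ER list, 1 of 33 measured genes was higher and 1 lower (median 0.22, with 22 above 0). HSPA5, the ER chaperone BiP, was at 110 FPKM untreated and 321 treated. Other chaperones of that compartment were below 2-fold, HSP90B1 at 257 and 371, CALR, calreticulin, at 532 and 761, and PDIA4, a disulfide isomerase, at 82.3 and 119. MANF, a secreted ER protein, was at 50.1 and 78.0 and HERPUD1, which serves ER-associated degradation, at 37.5 and 60.1. XBP1, the factor spliced by IRE1, was at 25.5 and 31.9 FPKM, and ERN1, which encodes IRE1, at 6.06 and 3.97. EDEM1, a mannosidase-like protein that hands misfolded glycoproteins to degradation, was the lower member, at 10.4 and 3.52. The table does not separate spliced XBP1.

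**Figure D1:**
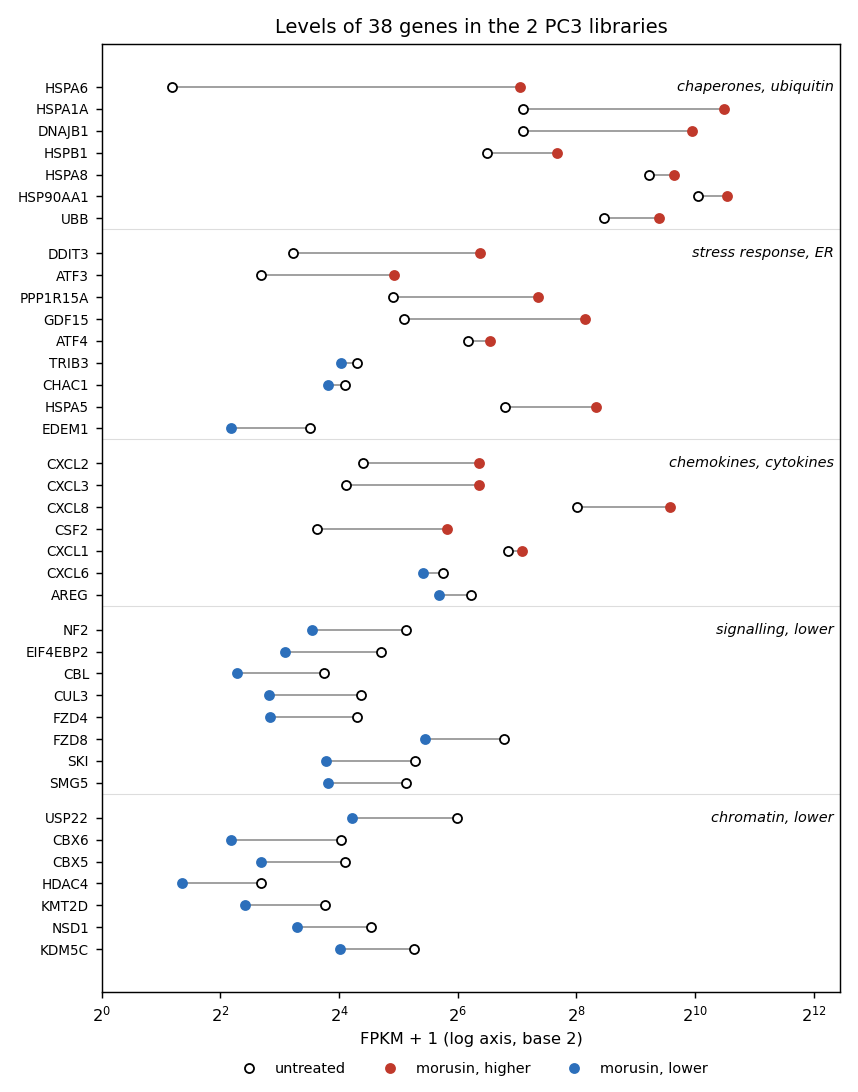
Levels of 38 genes in untreated (open) and morusin-treated (filled) PC3, 1 library each, as FPKM + 1 on a log axis; red marks a treated level above and blue one below the untreated level. HSPA6 spans the widest interval, from 1.28 to 132 FPKM, while TRIB3 and CHAC1 lie slightly below their untreated level.

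AP-1 genes had the highest median of the 47 lists, 0.77, with 3 of 11 measured members higher and 0 lower. That median was 0.40 with a pseudocount of 5. JUN, the central AP-1 subunit, was at 22.7 FPKM untreated and 221 treated, and JUND at 16.7 and 76.9. FOS was at 0.208 and 1.89, low in both libraries. FOSL1 was by level the leading FOS family member (285 and 499 FPKM), and FOSL2 was at 12.9 and 9.13. KLF6, a zinc finger factor, and MYC, which drives growth and ribosome genes, were the higher members among 27 measured immediate early factors. KLF6 was at 12.2 and 97.8 FPKM and MYC at 65.7 and 219. EGR1, often the leading immediate early gene after serum, was at 0.0686 and 0.198 FPKM, NR4A1 at 4.73 and 3.68, and IER2 at 80.8 and 52.7. ID1 (127 and 59.3) and KLF13 (7.55 and 1.79) were the 2 lower members, and the list's median was 0.18.

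In the MAP kinase cascade itself 26 of 33 members were below 0, with 0 higher, 1 lower and a median of -0.21. Its negative regulators were spread to both sides. DUSP1 and DUSP5, phosphatases of p38, JNK and ERK, were at 5.71 and 19.1 FPKM untreated and at 57.9 and 181 treated. DUSP2 was at 0.3362 and 3.765, ERRFI1, an inhibitor of the EGF receptor, at 96.6 and 221, and SPRY2, an ERK pathway inhibitor, at 10.85 and 23.2. DUSP6 and DUSP4, classical ERK-dependent phosphatases, were at 32.1 and 170 FPKM untreated and 40.8 and 137 treated. SPRED1, a Ras inhibitor, was lower, at 27.6 and 9.47. In all, 5 of 21 measured members were higher and 1 lower, around a median of -0.07. PIM1, a serine/threonine kinase gene known as a STAT target, was at 5.09 and 30.9 FPKM. STAT3, STAT5A and STAT5B were listed at 0, and the part of STAT factors in the PIM1 values was not tested. SOCS7 was the lower member of the STAT, JAK and SOCS list (5.70 and 1.19 FPKM) and SOCS3 was at 8.45 and 10.4.

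Among 32 measured chemokine, cytokine and growth factor genes 7 were higher and 0 lower, and the median was 0.13. The neutrophil chemokine gene CXCL8 was at 258 FPKM untreated and 765 treated, CXCL2 at 20.1 and 81.1, CXCL3 at 16.3 and 81.0, and CSF2, which encodes GM-CSF, at 11.3 and 55.6. EDN1, endothelin, was at 0.395 and 4.19, CCL20 at 0.46 and 3.16 and IL24 at 2.23 and 8.30. Neighbours of these genes did not share the size of the change. CXCL1 was at 115 and 135 FPKM and CXCL6 at 52.6 and 41.8, although both lie in the same chemokine cluster on chromosome 4 as CXCL2, CXCL3 and CXCL8. IL6 was at 0.3205 and 0.433, AREG at 74.05 and 50.35 and VEGFA at 7.06 and 6.39. Of 22 NF-kB subunit and inhibitor genes the higher ones were both inhibitors, NFKBIA (40.9 and 97.5) and TNFAIP3 (4.18 and 19.0), and the subunits NFKB1 (11.998 and 8.595) and RELA (36.1 and 46.1) were under 2-fold. The cytokine median was -0.04 with a filter of 5 FPKM. The interferon list had 0 of 29 members past 2-fold on either side (median -0.11).

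Metal, xenobiotic and antioxidant genes gave a divided picture. MT1X and MT2A, zinc-binding metallothioneins on chromosome 16, were at 16.2 and 442 FPKM untreated and 103 and 1031 treated, and the zinc exporter SLC30A1 was at 2.62 and 6.75. MT1G and MT1E were listed at 0 in both PC3 libraries, whereas in 22Rv1 MT1G was at 2.51 and 65.0 and MT1E at 3.49 and 13.7. No measured zinc importer reached 2-fold, SLC39A14 being at 27.1 and 14.9, SLC39A1 at 42.9 and 26.35, SLC39A10 at 11.94 and 10.7 and SLC39A6 at 24.1 and 27.8. MTF1, the metal-sensing factor, was at 3.23 and 1.48. Of the aryl hydrocarbon receptor genes, TIPARP (28.6 and 111) and CYP1A1 (3.34 and 7.86) were higher and AHR was at 28.5 and 18.8. None of 26 measured NRF2, heme and glutathione genes was higher, HMOX1 being at 6.53 and 10.8 and NQO1 at 68.8 and 73.8, and MAFG was lower (9.89 and 4.23). SAT1, which acetylates polyamines, was at 19.0 and 46.9. TP53INP1 was the lower gene among 21 measured p53 targets (2.43 and 0.61), CDKN1A was at 6.76 and 10.1 and MDM2 at 6.604 and 3.38.

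Cytoskeletal and Hippo genes included some of the widest gains. CCN1, a secreted matricellular protein and classical YAP target (chromosome 1, 85580761 to 85583962), was at 33.8 FPKM untreated and 558 treated, a change of 4.004, and CCN2 at 25.8 and 114. Other well-known targets were not with them, ANKRD1 being at 0.20 and 0.351, AXL at 69.4 and 56.6 and AMOTL2 at 17.2 and 20.6. NF2, which encodes merlin and acts upstream of YAP, was at 33.9 and 10.7 FPKM, AJUBA at 16.1 and 7.11 and the LATS activator MOB1B at 14.3 and 5.95. So 2 of 25 measured members were higher, 3 lower and 18 below 0 (median -0.31). RND3, a small GTPase that loosens actin stress fibres, was at 18.9 and 113 FPKM, RHOB at 5.985 and 14.003, and DLC1, a GTPase-activating protein, at 2.92 and 11.4. Actins were higher by amount, ACTB at 1764 and 3076 FPKM and ACTG1 at 713 and 1749, a change of 1.29. SRF, the factor that drives actin genes, was at 12.5 and 9.61. Of 34 cytoskeletal genes 2 were higher and 1 lower, namely the exchange factor gene ARHGEF37 (6.46 and 0.924), and 26 were above 0 (median 0.26).

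**Figure D2:**
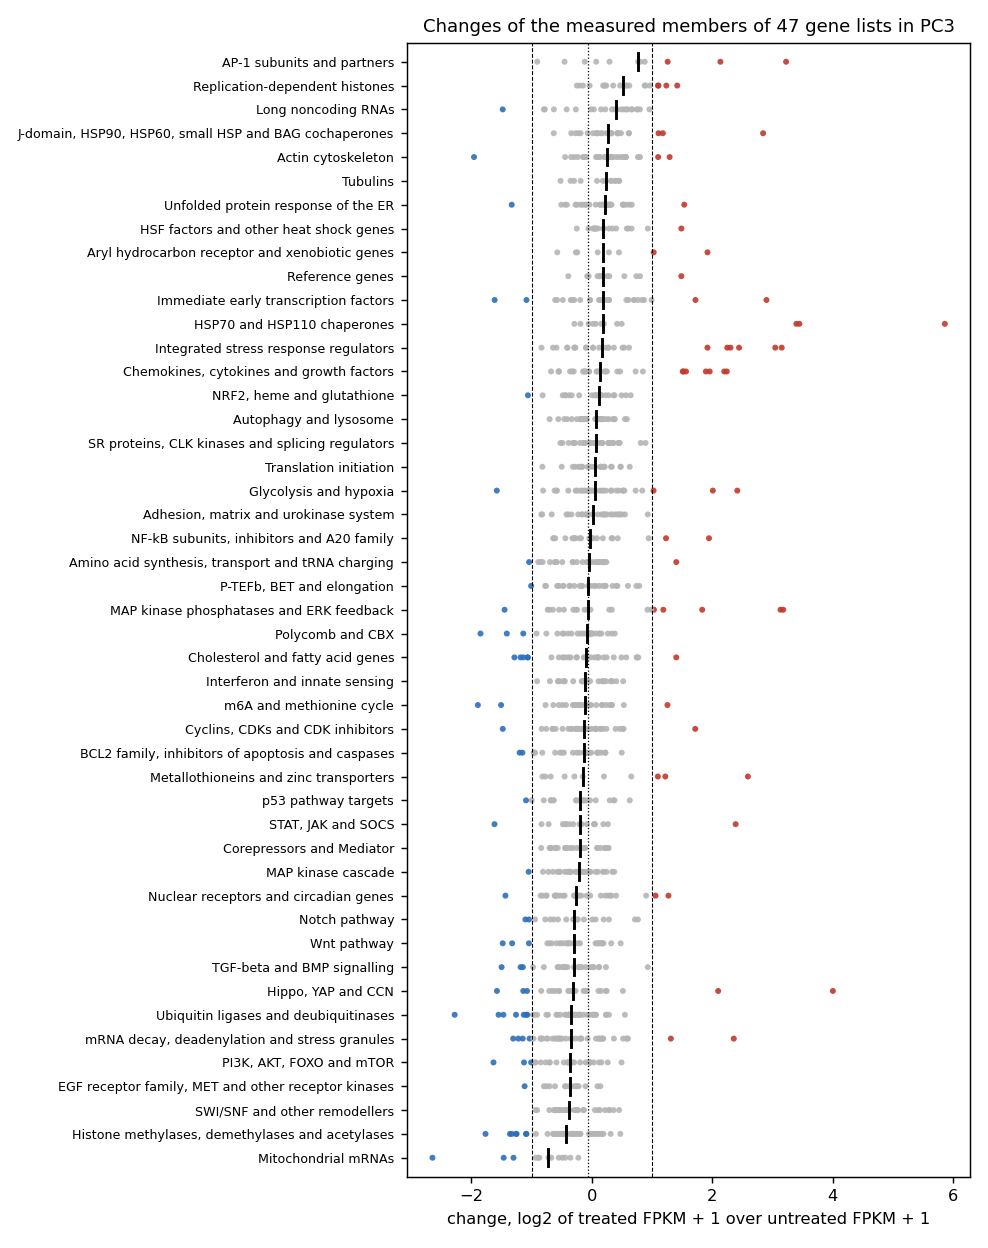
Each point is the change of a measured member of a gene list in PC3, with red and blue for members at least 2-fold higher and lower, a black bar for the list's median, dashed lines at 2-fold and a dotted line at the median of all measured genes (-0.05). Lists run from AP-1 genes (median 0.77) to mitochondrial mRNAs (median -0.72), and most have members on both sides of 0.

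On the lower side, some groups of chromatin regulators were frequent. Over all nuclear protein-coding genes the change fell with transcript length, to a median of -0.32 with 7.44% lower in the longest of 10 groups. The part of length in the values of this list and the lists that follow was not tested. Of 48 measured genes of histone methylases, demethylases, acetylases, deacetylases and related proteins, 7 were lower, 0 were higher and 38 were below 0. The median was -0.43. USP22, the deubiquitinase of the SAGA complex (chromosome 17, 20999593 to 21043760), was at 62.6 FPKM untreated and 17.7 treated. KMT2D, an H3K4 methylase of enhancers, was at 12.6 and 4.32, NSD1, an H3K36 methylase, at 22.3 and 8.75, and SETD1B at 7.88 and 3.19. The demethylases KDM5C and KDM4B were at 37.5 and 12.05 FPKM untreated and 15.2 and 5.12 treated, and HDAC4, a class IIa deacetylase, at 5.40 and 1.55. Of 31 remodelling genes none passed 2-fold on either side, 23 were below 0 (median -0.39), and BAZ2A (21.2 and 10.6) was the nearest. In the Polycomb list the lower members were all chromobox genes, CBX6 (15.3 and 3.54), CBX5 (16.2 and 5.455) and CBX2 (5.79 and 2.09), whereas EZH2, the H3K27 methylase, was at 22.8 and 24.8 and CBX1 at 127 in both. CBX5 encodes the heterochromatin protein HP1 alpha and is not a Polycomb subunit.

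Ubiquitin ligase and deubiquitinase genes had 7 of 47 members lower, 0 higher and 38 below 0, with a median of -0.34. UBASH3B, a phosphatase with a ubiquitin-binding domain, was at 16.1 FPKM untreated and 2.53 treated. CUL3 and CUL5, scaffolds of cullin ligases, were at 19.7 and 13.3 untreated and 6.07 and 5.73 treated. CBL, the ligase for activated receptor kinases, was at 12.5 and 3.88, and TRIM56, RNF144A and USP42 were the others. NEDD4L was above its untreated level, at 32.7 and 48.4. UNC119B, which had the lowest change of the genes named by size, is a lipid-binding trafficking protein (chromosome 12, 120710435 to 120723640) and was at 16.3 and 2.21, or 5.39-fold lower.

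Genes of several signalling pathways were below their untreated level together, most of them by less than 2-fold. In the PI3K and mTOR list 23 of 28 measured genes were below 0 (median -0.36), and EIF4EBP2, a translational repressor (25.3 and 7.47 FPKM), PDPK1 (7.49 and 2.89) and IRS1 (22.6 and 10.8) were lower. In the Wnt list 21 of 31 were below 0 (median -0.29) and the lower ones were the receptors FZD4 (18.8 and 6.12) and FZD8 (109 and 42.9) and the co-activator BCL9L (28.1 and 13.1). Of 25 TGF-beta and BMP genes 19 were below 0 (median -0.30), with the co-repressor SKI at 38.0 and 12.8, the receptor TGFBR1 at 4.80 and 1.62 and the inhibitor PMEPA1 at 5.86 and 2.02. NOTCH2 (14.3 and 6.42) and NRARP (4.87 and 1.73) were lower among 19 Notch genes. Of 16 receptor kinases 14 were below 0 (median -0.36) and the ephrin receptor EPHB4 (33.8 and 15.1) was lower, but EGFR was at 28.2 and 31.3. THRA, a thyroid hormone receptor, was at 7.97 and 2.32, while NR1D1, a circadian repressor encoded on the opposite strand of the same locus, was at 6.23 and 16.5. The sources do not say if counting used strand, so the 2 genes' reads in the overlap cannot be separated.

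Genes of mRNA decay lay on both sides, with 2 higher and 4 lower. ZFP36 and ZFP36L1, which bind AU-rich elements, were higher, at 2.14 and 20.99 FPKM untreated and 15.1 and 53.6 treated. TOB1 and TOB2, adaptors of the deadenylase, were at 29.8 and 11.97 untreated and 12.9 and 4.57 treated, SMG5, a nonsense-mediated decay factor, at 33.8 and 13.1, and TNRC6A, a partner of Argonaute, at 10.97 and 4.85. Of 41 members 27 were below 0 (median -0.35). NORAD, a long non-coding RNA that binds Pumilio proteins, was at 184 and 65.2, and it was the lower member of 24 long non-coding RNAs, of which 17 were above 0 (median 0.40), NEAT1 being at 17.99 and 31.1 and MALAT1 at 14.6 and 22.2. MAT2A, which makes S-adenosylmethionine, was at 178 and 47.2 and AMD1, which commits that compound to polyamines, at 36.9 and 12.3, while ODC1, the other entry to polyamines, was at 228 and 256.

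Lipid and survival genes were also unequal. FASN, fatty acid synthase, was at 35.8 FPKM untreated and 16.6 treated, ACACA, acetyl-CoA carboxylase, at 10.4 and 4.19, and LSS, which closes the sterol rings, at 11.4 and 4.09. The sterol exporters ABCA1 and ABCG1 were at 3.26 and 5.87 untreated and 1.04 and 2.03 treated. INSIG1, an ER protein that restrains sterol synthesis, was higher (2.14 and 7.31). Thus 5 of 32 measured lipid genes were lower and 1 higher (median -0.10). In the BCL2 and caspase list 2 of 27 were lower, APAF1, the apoptosome scaffold (4.76 and 1.59), and BCL2L2 (12.1 and 4.72). MCL1, a short-lived survival protein, was at 54.9 and 30.6, BCL2L1 at 195 and 218, and the pro-apoptotic PMAIP1 at 22.1 and 28.95. PLK2, a polo-like kinase, was the higher gene of the cell cycle list (15.1 and 52.1) and CCNF the lower (10.9 and 3.28). CCND1 was at 202 and 213 and CDK1 at 117 and 112.

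TXNIP and ARRDC3 belong to the same alpha-arrestin family and stood on opposite sides. TXNIP, which limits glucose uptake, was at 15.1 FPKM untreated and 4.38 treated, and ARRDC3 was at 6.01 and 36.4. ADM, adrenomedullin, was at 3.28 and 16.3 and NDRG1, a hypoxia gene, at 13.6 and 28.8, whereas VEGFA was near its untreated level and HIF1A was at 110 and 111. The glycolysis and hypoxia list had 3 of 34 members higher and 1 lower, with a median of 0.05 as deposited and -0.08 with equal sums over nuclear protein-coding genes. CITED2, which competes with HIF1A for its co-activator, was at 7.40 and 32.0. Names with ZNF, mostly zinc finger repressors, were a large group without wide changes. Of 374 measured, 276 were below 0, 5 were lower and 0 higher, and the median was -0.25.

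The structure of the genes differed between the classes. Over nuclear protein-coding genes, the median transcript was 2203 bases for the 109 higher genes, 5635 for the 292 lower genes and 3178 for all 11429. Median lengths of the 3′ untranslated region were 719, 2827 and 1116 bases, and median gene spans were 6.70, 50.3 and 33.1 kb. A single exon was found in 18.3% of higher, 1.71% of lower and 2.06% of all genes. A 3′ untranslated region over 3 kb was found in 4.90% of higher, 47.8% of lower and 18.3% of all. The AU-rich string TATTTAT stood in the 3′ untranslated region of 46.1% of higher and 46.4% of lower genes, against 33.3% of all. Among regions of 500 to 1500 bases the shares were 55.8% (24 of 43), 22.4% (11 of 49) and 24.9%. In shorter regions they were 27.3% (9 of 33), 12.5% (3 of 24) and 9.27%. In regions from 1500 bases to 3 kb the shares were close, at 47.6% (10 of 21), 42.3% (33 of 78) and 45.9%. Over 3 kb they were 80% (4 of 5), 63.0% (87 of 138) and 69.3%. The change also ran with length across all genes. With genes in 10 equal groups by transcript length, from the shortest group to the longest the median change went from 0.20 to -0.32 and the share of lower genes from 0.787% to 7.44%. The same comparison in 22Rv1 went from 0.52 to -0.49. With the trend on log length removed, 127 genes were higher and 279 lower, and 118 and 225 of these were also counted before. The part of this trend in the counts of each class was not tested.

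**Figure D3:**
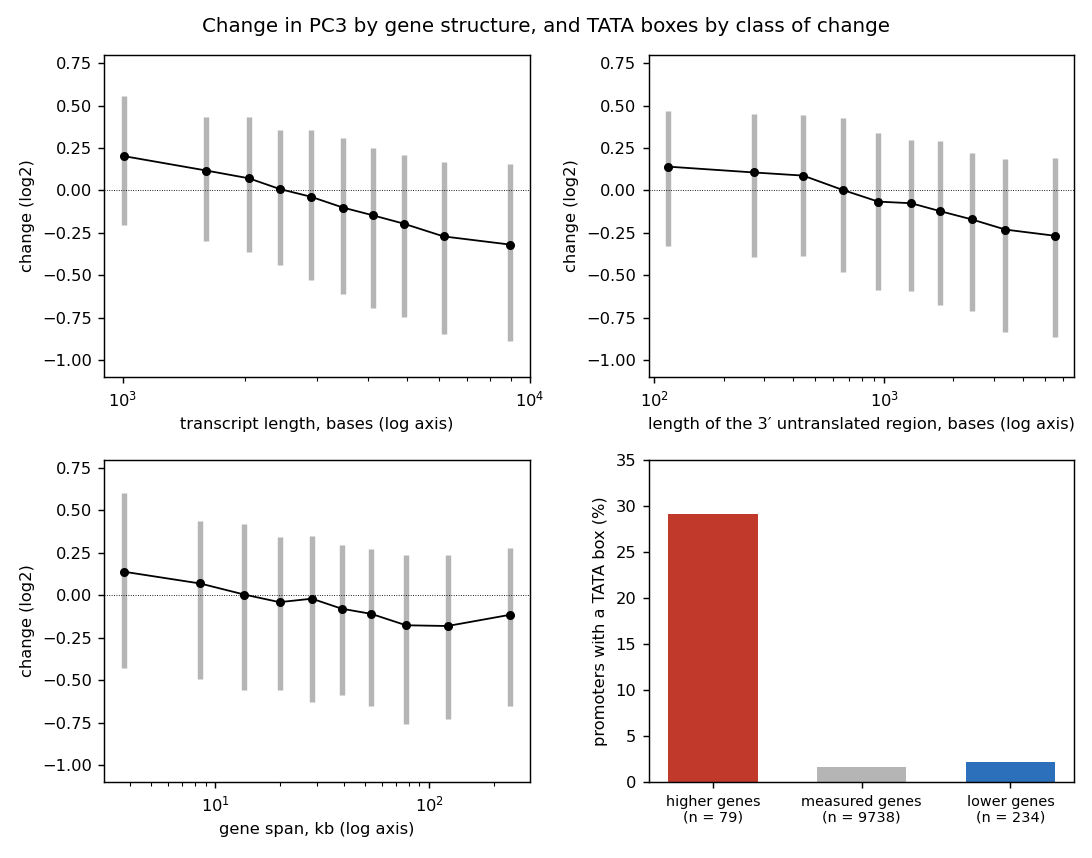
In the 3 line plots, points are the median change in PC3 of 10 equal groups of nuclear protein-coding genes ordered by transcript length, 3′ untranslated region or gene span (log axes) and grey bars run from the 10th to the 90th percentile of genes; the bar chart gives the share of promoters with TATAAA in the window before the start. Longer transcripts had lower medians, from 0.20 to -0.32, and the TATA box stood in 29.1% of higher and 2.14% of lower genes.

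RNAs without a poly(A) tail were higher in the treated library for most kinds. The 4 named 5.8S ribosomal RNA copies, near-identical to each other, summed to 15.6 FPKM untreated and 177 treated, 11.3 times as much, and U1 small nuclear RNA genes summed to 3.31 and 17.2. RN7SK, the 7SK RNA, was at 5.54 and 14.6, while the 7SL RNAs summed to 41.6 and 40.1. Of 13 measured small nuclear RNA genes 9 were higher, and of 8 ribosomal RNA genes 8 were, against 1.24% of all measured genes. The filter admits a gene by either library, and all 143 U1 genes together held 3.31 FPKM untreated. Most of the 9 measured U1 genes thus passed it only through the treated library. Such counts were therefore partly set by the filter. Most histone mRNAs also lack the tail, and 4 of 20 measured genes of the histone list, which holds some tailed variants, were higher and 0 lower (median 0.52). These members were H2AC8 (1.18 and 4.83 FPKM), H2BC21 (1.59 and 5.11), H2AC20 (1.29 and 3.95) and H1-3 (0.384 and 1.97), all low. Outside the list H2AC14 (0.337 and 2.21), H2BC11 (1.54 and 4.10) and H2BC14 (0.0542 and 1.502) were higher too, whereas H1-2 was at 18.8 and 37.7. The part of tail selection in these values was not tested. Without any of the non-coding classes, 109 of 11442 protein-coding genes were higher and 295 lower.

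Of the measured small RNA genes 19 were higher, 5 were lower and 68 were under 2-fold. Over all measured genes 1.24% were higher and 2.64% lower. Most of the 19 higher small RNA genes were under 1 FPKM untreated, so they counted as measured only through the treated library. The counts on each side were thus partly set by the filter. Of the 19 small RNA genes that were higher, 15 lie inside another gene on its strand, as do 4 of the lower and 57 of the others. For 2 of the 15 the host was higher itself, DDIT3, which holds MIR616 (0.392 and 6.04 FPKM), and GDF15, which holds MIR3189 (0.842 and 6.26). SNORD14E, inside HSPA8, was at 0.501 and 25.6, a change of 4.14, whereas HSPA8 itself had a change of 0.42. MIR6515 in CALR was at 0.414 and 4.03 and MIR6819 in MYH9 at 0.351 and 2.98. The 5 small RNA genes named here are shorter than a read of 150 bases, so such a value can hold fragments of the host's transcript and does not measure the mature RNA.

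The mitochondrial genome is read from a promoter for each strand into long transcripts from which tRNAs are cut. All 13 mRNAs were below their untreated level. The 12 of the heavy-strand promoter had a median of -0.70, from MT-ND1 (762 and 276 FPKM) to MT-ND3 (197 and 168). MT-ND6, the only mRNA from the light-strand promoter, was at 177 and 27.4, a change of -2.64. The tRNA genes divided alike. Of 8 on the light-strand side 7 were lower (median -3.27), with MT-TY at 207 and 7.84, and of 12 measured on the heavy-strand side 9 were lower (median -2.14), with MT-TL1 at 435 and 61.1. The ribosomal RNAs were not lower, MT-RNR2 being at 2417 and 2505 and MT-RNR1 at 260.1 and 510.1. All of these RNAs together took 5.53% of the untreated and 3.41% of the treated FPKM. In 22Rv1, at its dose, MT-ND6 had a change of -1.82 and the heavy-strand mRNAs a median of -0.87. The tRNA genes are also shorter than a read, so their values can hold fragments of neighbouring RNAs.

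**Figure D4:**
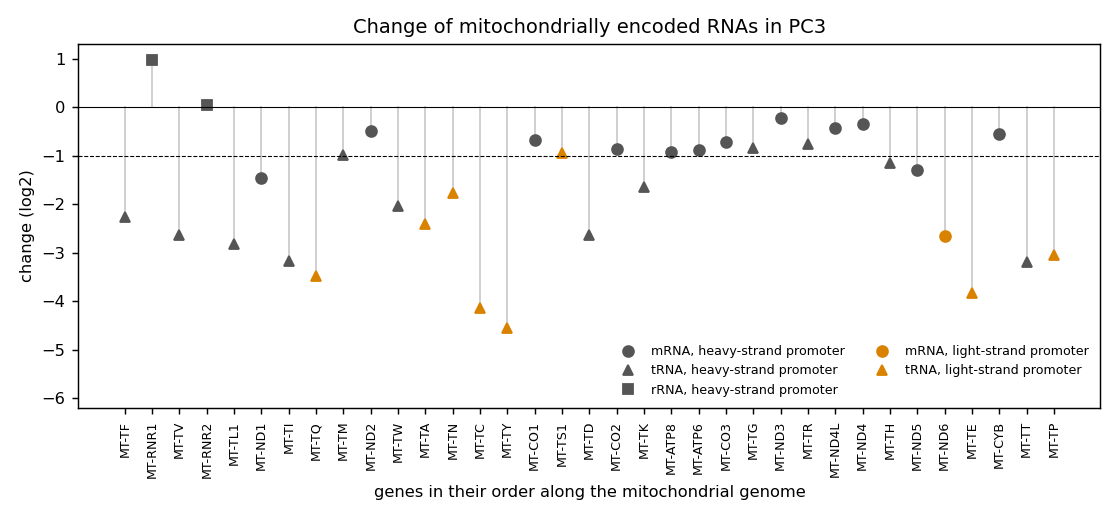
Changes of the mitochondrially encoded RNAs in PC3, in the order of their genes, with circles for mRNAs, triangles for tRNAs and squares for ribosomal RNAs, orange for the light-strand promoter and grey for the heavy-strand promoter; the dashed line is 2-fold lower. MT-TY is the lowest, from 207 to 7.84 FPKM, and MT-RNR1 and MT-RNR2 are the RNAs above 0.

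By amount, the 10 most abundant genes of each library took 6.50% of all FPKM untreated and 6.89% treated. The 100 most abundant took 22.2% and 25.2%, mitochondrial genes included. The 160 higher genes made up 1.21% of all FPKM untreated and 4.37% treated, and the 341 lower genes 2.60% and 0.859%. Both classes were chosen by these same values, so the direction of their shares was set by the choice. FTH1, ferritin heavy chain, was the most abundant gene outside the mitochondrial genome in both libraries (4441 and 5704 FPKM), followed there by ACTB. ACTG1 was among the 10 most abundant genes of the treated library and not of the untreated one. ALDH1A3, a retinaldehyde dehydrogenase (999 and 732), and TUBA1B, an alpha-tubulin (1018 and 896), had some of the widest losses in FPKM outside the mitochondrial genome. Of the ribosomal protein genes 77 of 78 were above 0, with a median of 0.46. The median of all measured genes was near 0, and 55.8% of them lay below it.

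**Figure D5:**
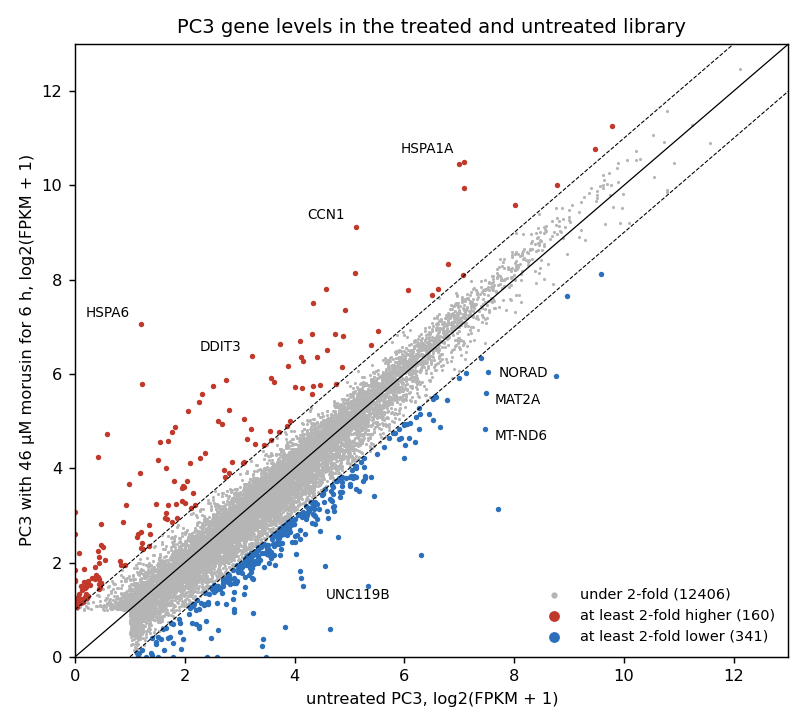
Levels of the 12907 measured genes in the untreated (x) and treated (y) PC3 library as log2(FPKM + 1), with red and blue for genes at least 2-fold higher and lower and dashed lines at 2-fold. The 160 higher genes include low and abundant genes, from HSPA6 to HSPA1A, while most of the 341 lower genes lie at intermediate levels.

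The higher genes had a median of 2.41 FPKM untreated and 11.5 treated, and 58 of them were under 1 FPKM untreated. For the lower genes the medians were 11.4 and 4.05 FPKM, and 45 were under 1 FPKM treated. At the edge of the size used, NDRG1 (change 1.03), TMEM158 (1.03) and CYP1A1 (1.03) were just inside on the higher side, and KLF4 (0.99), PHLDA1 (0.99) and TUFT1 (0.97) just outside. LMNB2, NBPF12 and CABLES1 were just inside on the lower side (-1.001, -1.001 and -1.002), while TNFRSF10B, TNKS2 (-0.997 and -0.996) and SEMA3F (-0.99) fell just short. At the level used, TFEB (1.0003 FPKM untreated) was just inside and HSP90AB3P (0.9996 treated) just outside.

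Beside 22Rv1, which had another dose and medium, 123 of the 160 higher genes were measured there, and 55 of them were also 2-fold higher and 7 were 2-fold lower. Over all 13361 genes measured in 22Rv1, 465 were higher (3.48%) and 136 lower (1.02%). Of the 341 lower genes 311 were measured, 35 were also 2-fold lower and 3 were 2-fold higher. Of 10806 genes under 2-fold in PC3 and measured in 22Rv1, 296 were past 2-fold there with the same sign and 52 with the opposite sign. HSPA6 was at 0.0657 and 39.3 FPKM in untreated and treated 22Rv1, JUN at 10.3 and 44.5 and MT1X at 7.39 and 47.1, each higher there as in PC3. Genes of the chemokine group had no level to compare, CXCL2, CXCL3 and CXCL8 being listed at 0 in both 22Rv1 libraries. DUSP1 was at 4.24 and 4.67 and ATF3 at 10.8 and 10.7 there, against the wide changes in PC3. The difference between the lines was not tested, since each line has 1 library a side.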

How the data were processed

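RNA-seq was made from total RNA of PC3 and 22Rv1 cells, 1 library for each line and treatment, with a column RNA kit, the Illumina TruSeq RNA v2 kit and paired reads of 150 bases on a HiSeq2500, per the labels' protocols. The authors deposited 1 table of FPKM values for 60617 Ensembl gene IDs with a column for each library. The submitters' processing notes list Trimmomatic, HISAT2 and StringTie with the build GRCh38. Tool versions, the annotation release and the use of strand were not given in the sources used here. Since FPKM share out a library, a rise of abundant transcripts lowers all other values.

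With FPKM and 1 library per group, neither a count test nor any other test was run. Changes were log2 ratios of FPKM + 1, a scale on which low genes seem to change less than they did, for genes at 1 FPKM or more in at least 1 PC3 library, and 2-fold was the size counted. Depth was inferred from the commonest step between low values, with single-exon genes 600 to 5000 bases long (tolerance 1.5%), which is rough: in the untreated library 81 of 1250 low values lay at the step and in the treated library 56 of 1026. Counting errors were computed on the plain FPKM ratio and hold no other error. Symbols came from a gene name table (60261 IDs matched). Gene types, positions and lengths were taken from GENCODE 29 (GRCh38), possibly not the authors' release, and a length was found for 99.6% of measured genes. Promoters came from RefSeq on GRCh38.p14, matched by symbol for 9738 of 12410 measured genes with a symbol.

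Genes named have a symbol and are not Y-linked. They are the 40 highest and 40 lowest changes at 5 FPKM or more, small RNAs and mitochondrial genes aside, the 12 widest gains and losses in FPKM, genes under 1 FPKM in 1 library and at 5 or more in the other, up to 8 members per list with the members needed to show which did not pass, the 10 most abundant genes, the markers, and 3 genes on each side of the thresholds. Not all of these are printed, and some genes are not reported here. Small RNA, tRNA and ribosomal RNA genes, the genes near STAT3, histone genes outside their list, and list members under 5 FPKM or under 2-fold that are given for contrast were named after their values were seen. The members and the 47 lists were chosen with earlier results of these data known. Changes were recomputed with other pseudocounts, filters, scalings, gene classes and with a trend on transcript length removed. The scripts were tested on simulated data. Python 3.11.15 with numpy 2.4.6, pandas 2.3.3 and matplotlib 3.10.9 was used.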

Additional observations from a re-analysis of the deposited data

Results flagged for a closer look

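C7orf25 and MYC were 2-fold higher in treated PC3 and 2-fold lower in treated 22Rv1. The change of C7orf25 in PC3 minus that in 22Rv1 was 3.93, with 2.48 FPKM untreated and 12.2 treated in PC3 and 11.99 and 2.22 in 22Rv1. This gene shares its locus with PSMA2, so its reads may belong to either and its values are uncertain. For MYC the difference was 2.81, with 65.7 and 219 FPKM in PC3 and 149 and 69.6 in 22Rv1. Neither difference was tested, since each line has 1 library a side, and the doses and media differed.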

How the results depend on the processing

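The counts depended most on the pseudocount. With a pseudocount of 0.1, 259 genes were higher and 680 lower, and with a pseudocount of 5, 74 and 85, which gave 46.5% higher in place of 31.9%. A filter of 5 FPKM gave 105 higher, and protein-coding genes alone 109 higher (27.0% of those past 2-fold) and 295 lower. Scaling to equal sums over nuclear protein-coding genes gave 510 lower with 21.2% higher and moved the median of all genes from -0.05 to -0.17. Of 416 named genes, 54 counted as past 2-fold fell short with a pseudocount of 5, 20 with the length trend removed and at most 7 under any other setting tried, and none of those past 2-fold changed sign. Of the 47 list medians, at most 6 changed sign under any setting, all of lists within 0.2 of 0. Among lists, the histone median was 0.52 as reported and between 0.24 and 0.43 under the 6 settings that took it below 0.5. The AP-1 median was 0.77 and fell to 0.40 with a pseudocount of 5. The median of histone methylases and related genes was -0.43 as reported, -0.51 with both libraries at the geometric mean of their sums and -0.53 with equal nuclear protein-coding sums, and that of remodellers -0.39 and, with the last, -0.51. No left-out replicate and no paired analysis was possible because each group holds 1 library.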
